A study of Mus musculus with 18 samples.

Results

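The proteasome is the chambered protease that degrades ubiquitin-tagged proteins in every eukaryotic cell. Its barrel-shaped core particle is a stack of outer alpha rings, which gate the entrance, around inner beta rings, which hold the cutting sites. A regulatory cap recognises ubiquitin chains, removes them, and unfolds the substrate with a ring of ATPases. Antigen-presenting cells also use proteasome products as the source of peptides for MHC class I, and inflammatory signals let them build immunoproteasomes, in which inducible catalytic subunits replace the constitutive ones.

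The transcripts of the constitutive proteasome were examined in dendritic cells grown from mouse bone marrow. All 37 genes in the module were found by symbol among the 23420 genes listed, and all 37 were among the 11876 genes with enough counts to be tested. They comprise 7 core alpha subunits (Psma1 to Psma7), 7 core beta subunits (Psmb1 to Psmb7), 6 cap ATPases (Psmc1 to Psmc6) and 11 other cap subunits (Psmd genes). The module also holds 3 chaperones that assemble the ATPase ring (Psmd5, Psmd9 and Psmd10) and 3 regulators outside the canonical cap (the activators Psme3 and Psme4 and the inhibitor Psmf1, or PI31). The inducible subunits Psmb8, Psmb9 and Psmb10 are not members.

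Cells were from C57BL/6 mice, were cultured in 20 ng/ml GM-CSF, were treated for 8 hours and were sorted as live CD11c-high cells. Each of 6 groups had 3 RNA sequencing libraries. The conditional knockout (cKO) cells had genotype Bat3 fl/fl CD11c Cre, with Cre under the promoter of the dendritic cell integrin CD11c, and were given LPS or medium. Wild-type (WT) cells were given LPS with IL10 and TGF-β, LPS alone, IL10 with TGF-β, or medium, and the labels do not say whether they carried Cre or floxed alleles. LPS is the bacterial endotoxin sensed by TLR4, and both cytokines dampen dendritic cells. Bat3 is now called Bag6. Its protein binds misfolded and mislocalised polypeptides and helps route them to the proteasome.

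The target gene was checked first. Bag6 averaged 9.36 ± 2.68 CPM (counts scaled to library size) in cKO cells with LPS, against 24.0 ± 0.757 CPM in WT cells with LPS, and 5.56 ± 1.52 CPM in cKO cells in medium, against 23.5 ± 0.982 CPM in WT cells in medium (SD, n = 3 each). The log2 fold changes were -1.36 ± 0.17 and -2.08 ± 0.17 (standard error), with adjusted p-values of 9.3e-06 and 9.1e-08 from edgeR. These counts cover the whole gene, so transcript left outside the deleted part is included. Transcript from any cells that kept the gene would be counted too and cannot be told apart from it. The fold reduction was smaller with LPS than in medium, although cKO libraries overlapped (6.31 to 11.3 CPM with LPS and 4.56 to 7.31 CPM in medium). Whether this bears on the genotype comparisons was not tested. Libraries held 8056830 to 12068800 estimated counts, and the 37 genes took 0.483 to 0.623% of them. The least counted member averaged 212 counts per library.

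Cell type markers were checked in the same libraries. The summed level of 10 dendritic cell markers was 7864 to 8324 CPM in cKO cells with LPS, 5281 to 8113 CPM in cKO cells in medium, 6952 to 7685 CPM in WT cells with LPS and 3994 to 8966 CPM in WT cells in medium. It was 1273 to 1701 CPM in WT cells with LPS and cytokines and 1472 to 2035 CPM in WT cells with cytokines alone. The 10 granulocyte precursor markers summed to 2928 to 3901 CPM in WT cells with LPS and cytokines, against 748 to 2203 CPM with LPS alone, and to 5302 to 7994 CPM in WT cells with cytokines alone, against 417 to 937 CPM in medium. In cKO cells they summed to 515 to 1634 CPM with LPS, against 973 to 2893 CPM in medium. The 8 macrophage markers, of which Lyz2 was highest in every group, were also summed. In cKO cells the sums were 15347 to 15914 CPM with LPS and 14257 to 18125 CPM in medium. In WT cells they were 10314 to 13594 CPM with LPS and 14338 to 19486 CPM in medium. With cytokines they were 7945 to 9227 CPM with LPS and 8902 to 10188 CPM without it. The 6 lymphocyte markers summed to at most 0.624 CPM in any of the 18 libraries. In these sorted populations, fewer cells of a type and less RNA per cell cannot be told apart.

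The promoters of 5 members are printed because these genes span the range of responses: Psmb6 and Psmd8 rose with LPS in both genotypes, Psmd6 and Psme3 fell in both, and Psmb5, a catalytic subunit like Psmb6, was called in none of the 9 contrasts with TMM factors. The 250 bases before each RefSeq start site are given, from the GRCm38.p6 build, 5′ to 3′ on the gene's own strand. Capitals mark matches to TGACNNNGC, the core of the antioxidant response element bound by the proteasome gene activators NRF1 and NRF2, or to CCAAT, the box bound by NF-Y, each searched on both strands.
Psmb6 (chr11:70525107-70525356, + strand): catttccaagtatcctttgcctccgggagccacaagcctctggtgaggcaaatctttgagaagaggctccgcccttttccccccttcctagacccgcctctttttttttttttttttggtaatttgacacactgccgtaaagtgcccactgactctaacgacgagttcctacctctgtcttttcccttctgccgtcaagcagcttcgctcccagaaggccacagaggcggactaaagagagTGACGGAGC
Psmd8 (chr7:29180674-29180923, - strand): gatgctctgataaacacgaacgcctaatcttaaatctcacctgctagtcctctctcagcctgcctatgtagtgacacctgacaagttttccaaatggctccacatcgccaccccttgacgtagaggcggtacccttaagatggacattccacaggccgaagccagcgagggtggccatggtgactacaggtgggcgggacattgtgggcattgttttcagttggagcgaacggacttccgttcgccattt
Psmb5 (chr14:54617996-54618245, - strand): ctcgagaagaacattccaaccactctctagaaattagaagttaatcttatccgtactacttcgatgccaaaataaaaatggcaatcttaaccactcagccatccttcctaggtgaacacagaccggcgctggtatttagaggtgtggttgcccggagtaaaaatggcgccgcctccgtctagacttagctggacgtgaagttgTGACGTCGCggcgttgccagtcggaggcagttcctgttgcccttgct
Psmd6 (chr14:14120946-14121195, - strand): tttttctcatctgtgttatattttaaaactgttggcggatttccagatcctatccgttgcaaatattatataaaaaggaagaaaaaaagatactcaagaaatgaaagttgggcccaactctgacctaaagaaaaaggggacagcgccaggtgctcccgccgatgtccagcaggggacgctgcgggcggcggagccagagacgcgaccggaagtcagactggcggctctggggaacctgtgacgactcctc
Psme3 (chr11:101315963-101316212, + strand): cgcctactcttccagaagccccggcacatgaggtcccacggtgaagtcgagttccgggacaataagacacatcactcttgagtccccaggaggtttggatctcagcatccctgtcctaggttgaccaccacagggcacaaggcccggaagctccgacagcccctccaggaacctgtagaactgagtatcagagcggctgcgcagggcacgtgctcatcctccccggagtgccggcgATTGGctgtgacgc
Psmb6 held TGACNNNGC with its last base next to the start site, at 9 bases upstream counting from the match's first base, and Psmb5 held it at 47 bases upstream. Psme3 held CCAAT on the opposite strand at 14 bases upstream, and the windows of Psmd8 and Psmd6 held neither motif. RefSeq promoters were available for 31 of the 37 members, in 33 windows. TGACNNNGC was in 5 of the 33 (15.2%), against 10.2% of the 32851 promoters of all genes, and CCAAT was in 12 of the 33 (36.4%), against 33.8%. No match of one motif overlapped the other in the windows printed. These matches describe the letters only.

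Levels per transcript length, in TPM averaged over the 6 group means, differed between the parts of the particle. The median was 417.7 TPM over the 7 alpha subunits and 342.4 TPM over the 7 beta subunits, against 101.5 TPM over the 6 ATPases and 117.8 TPM over the 11 other cap subunits. The assembly chaperones had a median of 56.7 TPM and the 3 regulators 12.9 TPM.

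Within each class a few genes stood apart. Among beta subunits, Psmb6, which carries the caspase-like site, was highest at 515.4 TPM, and Psmb7, which carries the trypsin-like site, was lowest at 140.4 TPM. Psmd8, a lid subunit whose yeast counterpart joins the lid last, reached 420.5 TPM, a level within the range of the core subunits, whereas Psmd3, another lid subunit, was lowest of its class at 66.5 TPM. Alpha subunits ran from 224.1 TPM (Psma4) to 491.5 TPM (Psma2), and ATPases from 70.8 TPM (Psmc2) to 137.2 TPM (Psmc6). Psmd9 and Psmd10 marked the ends of the chaperones at 14.7 and 76.7 TPM, and Psme4 and Psmf1 those of the regulators at 7.20 and 21.1 TPM.

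**Figure D1:**
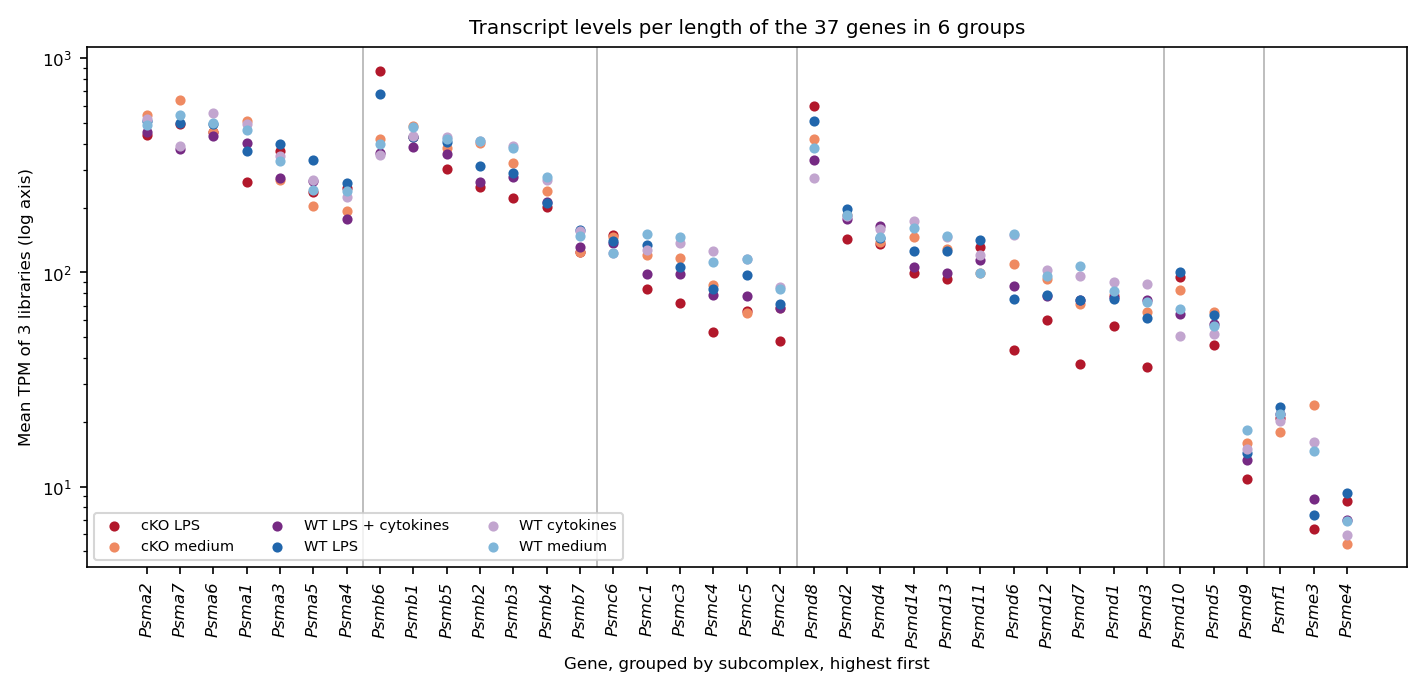
Mean TPM of 3 libraries (log axis) for each of the 37 genes, grouped by subcomplex with grey lines between them, 1 point per group. Core alpha and beta subunits lie mostly above the cap subunits, with Psmb7 (140.4 TPM) and Psmd8 (420.5 TPM) as the members of their classes that cross over.

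The response to LPS was compared with medium within each genotype. In cKO cells 17 of 37 members rose and 5 fell, against 29.3% and 34.8% of all genes tested (64.1% in either direction). In WT cells 16 rose and 3 fell, against 29.8% and 28.9% of all genes (58.7% in either direction). As shares of the 37, 45.9% rose and 13.5% fell in cKO cells, and 43.2% rose and 8.11% fell in WT cells. The median log2 fold change of the members was 0.16 in cKO cells, against -0.09 for all genes, and 0.13 in WT cells, against 0.01 for all genes. These directions depend on the scale. In TPM 7 rose and 22 fell in cKO cells (18.9% and 59.5%), against 16.0% and 58.0% of all genes. In WT cells 7 rose and 12 fell in TPM (18.9% and 32.4%), against 19.8% and 40.5% of all genes. The median of all genes moved to -0.47 in cKO cells and -0.19 in WT cells. With LPS, 6 of 10 granulocyte precursor markers fell in cKO cells and 2 of 10 rose in WT cells. Of 8 macrophage markers, 5 rose and 2 fell in cKO cells, and 5 rose and 3 fell in WT cells. The part of these markers in these values was not tested.

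Among core alpha subunits, 5 of 7 rose with LPS in each genotype with TMM factors. In TPM only Psma3, Psma4 and Psma5 did so in cKO cells, and only Psma3 and Psma5 in WT cells. Psma7, not called with TMM factors, was lower in cKO cells in TPM (-0.37, adjusted p = 0.00025 from limma). Psma3 had 410, 413 and 420 CPM in cKO cells with LPS, against 222, 198 and 208 CPM in cKO cells in medium. In WT cells it had 337, 362 and 348 CPM with LPS, against 232, 225 and 270 CPM in medium. The groups did not overlap in either genotype, and the log2 fold changes were 0.98 ± 0.08 in cKO cells (adjusted p = 2e-09) and 0.53 ± 0.08 in WT cells (adjusted p = 1.4e-05). Psma5, whose levels were 222, 228 and 226 CPM with LPS against 142, 131 and 131 CPM in medium in cKO cells, and 232, 263 and 253 CPM against 147, 143 and 161 CPM in WT cells, rose by 0.74 ± 0.08 and 0.73 ± 0.08. Psma4 rose by 0.89 ± 0.10 in cKO cells and by 0.38 ± 0.10 in WT cells, the second a call that was lost in TPM (0.13, adjusted p = 0.27). Psma1 went against its ring in cKO cells, where it had 257, 273 and 252 CPM with LPS and 378, 317 and 345 CPM in medium, a log2 fold change of -0.41 ± 0.08 (adjusted p = 0.00023).

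The beta ring holds the 3 constitutive cutting sites, of which Psmb6 and Psmb7 were called. Psmb6 had 679, 706 and 705 CPM in cKO cells with LPS, against 250, 199 and 248 CPM in cKO cells in medium. It had 385, 480 and 406 CPM in WT cells with LPS, against 200, 203 and 219 CPM in WT cells in medium. Every LPS library was above every medium library, and the fold was 3.00 in cKO cells (log2 1.58 ± 0.10, adjusted p = 2.1e-11) and 2.04 in WT cells (log2 1.03 ± 0.10, adjusted p = 1.6e-08), the largest rise of any member in each genotype.

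Psmb7 rose less. It had 97.5, 87.8 and 89.7 CPM in cKO cells with LPS, against 58.0, 70.8 and 62.2 CPM in cKO cells in medium, and 94.2, 90.3 and 87.8 CPM in WT cells with LPS, against 67.8, 64.7 and 81.4 CPM in WT cells in medium. Those groups did not overlap either, but the log2 fold changes of 0.53 ± 0.10 (adjusted p = 8e-05) and 0.35 ± 0.10 (adjusted p = 0.004) were -0.00 and 0.10 in TPM, both short of the threshold. Psmb5, which carries the chymotrypsin-like site, averaged 199.6 ± 5.92 CPM in cKO cells with LPS, against 172.3 ± 22.6 CPM in cKO cells in medium. In WT cells it averaged 209 ± 26.7 CPM with LPS, against 180 ± 17.1 CPM in medium (SD, n = 3 each). Its log2 fold changes of 0.21 ± 0.10 in both genotypes did not pass the test (adjusted p = 0.080 in cKO cells and 0.085 in WT cells) and were -0.31 (adjusted p = 0.0045) and -0.04 in TPM. In cKO cells Psmb5 was called higher under RLE (0.28, adjusted p = 0.028) and DESeq2 (0.28, adjusted p = 0.025), so its direction turned with the scale. It was also called higher without the first cKO medium library (0.27, adjusted p = 0.048), and in WT cells without the first WT LPS library (0.28, adjusted p = 0.033) or the third WT medium library (0.29, adjusted p = 0.033).

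**Figure D2:**
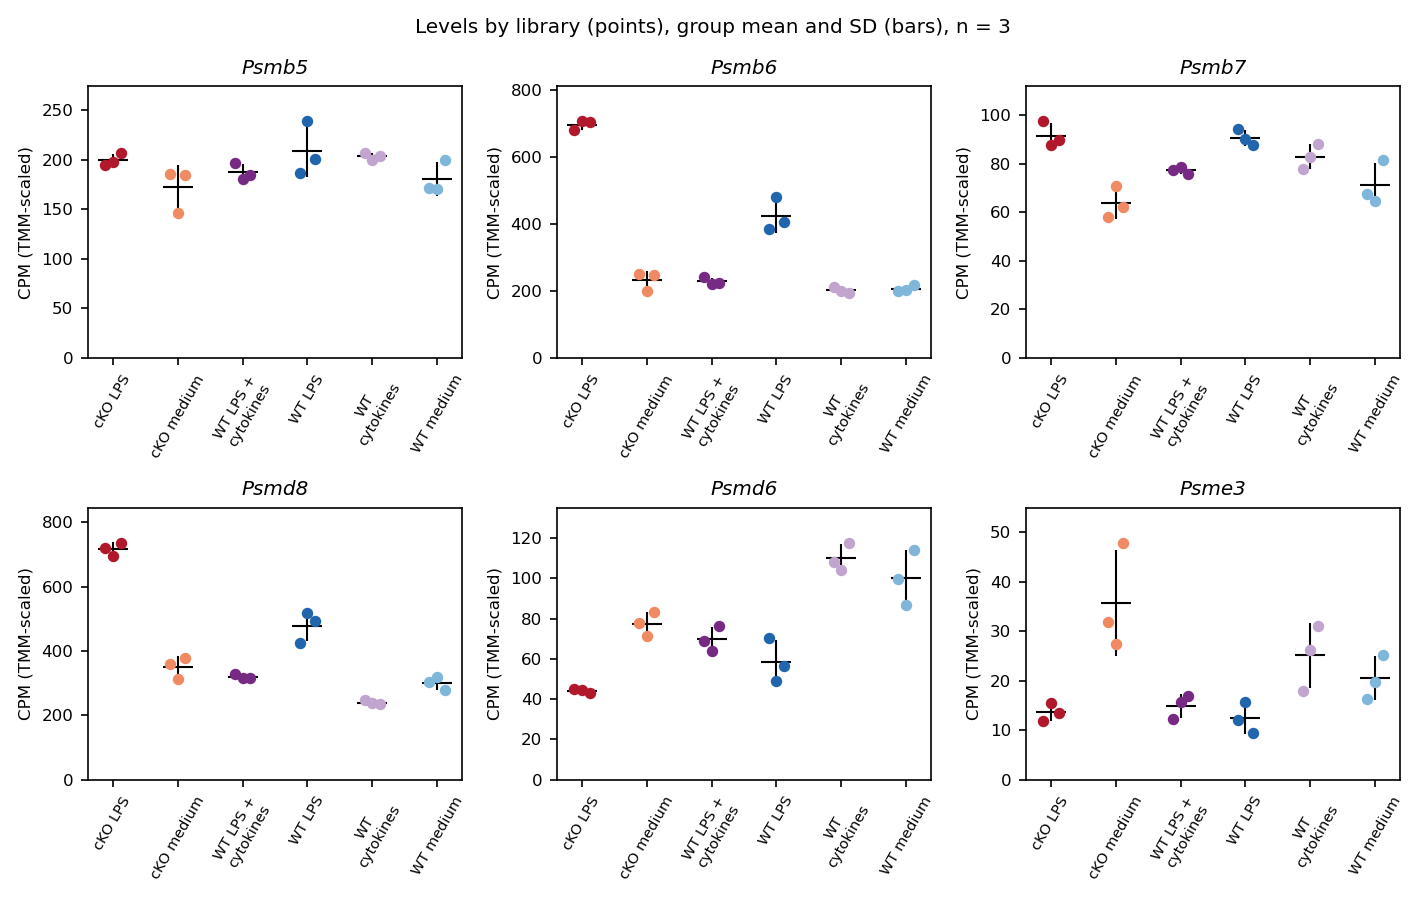
CPM of the 3 catalytic subunits and of Psmd8, Psmd6 and Psme3 in each of the 18 libraries (points), with the group mean and SD (bars), n = 3. Psmb6 and Psmd8 are highest in cKO cells with LPS, whereas Psmb5 shows overlapping levels between most groups.

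Few of the cap ATPases moved with LPS: 2 of 6 rose in cKO cells and 1 of 6 in WT cells. Psmc6 averaged 187 ± 4.31 CPM with LPS, against 126.5 ± 19 CPM in medium, in cKO cells, and 136 ± 5.83 CPM against 101 ± 4.72 CPM in WT cells, with log2 fold changes of 0.56 ± 0.09 and 0.43 ± 0.09. Neither passed the test in TPM (0.04 and 0.18).

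The other cap subunits split. Psmd8 rose in both genotypes. It had 721, 696 and 736 CPM in cKO cells with LPS, against 360, 311 and 378 CPM in cKO cells in medium, and 425, 520 and 492 CPM in WT cells with LPS, against 302, 320 and 278 CPM in WT cells in medium. The fold was 2.05 in cKO cells and 1.60 in WT cells (adjusted p = 3.9e-09 and 2.2e-06), with no overlap. Psmd11, which clamps the cap to the core, rose by 0.92 ± 0.08 on the log2 scale in cKO cells and by 0.76 ± 0.08 in WT cells (adjusted p = 4.4e-09 and 1e-07).

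Psmd6 and Psmd7 moved the other way. Psmd6, a lid scaffold subunit, had 45.0, 44.4 and 43.1 CPM in cKO cells with LPS, against 77.8, 71.1 and 83.1 CPM in cKO cells in medium. It had 70.4, 49.1 and 56.5 CPM in WT cells with LPS, against 99.6, 86.7 and 114 CPM in WT cells in medium. With no overlap in either genotype, the log2 fold changes were -0.81 ± 0.12 (adjusted p = 7.6e-06) and -0.77 ± 0.12 (adjusted p = 1.2e-05). Psmd7, the partner of the deubiquitinase Psmd14, fell by 0.39 ± 0.11 in cKO cells and by 0.28 ± 0.11 in WT cells. The WT libraries overlapped, and the WT call was lost without any of 4 of the 6 libraries compared (adjusted p up to 0.132). Psmd3 fell in cKO cells by 0.33 ± 0.13, a call lost without any of 4 of the 6 libraries (adjusted p up to 0.112).

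Of the chaperones and regulators, Psmd10 (gankyrin) rose by 0.72 ± 0.11 in cKO cells and by 0.82 ± 0.11 in WT cells, and was 0.20 in cKO cells in TPM (adjusted p = 0.054). Psme4 (PA200), an activator that caps the core without ATP, had 45.4, 46.6 and 47.2 CPM in cKO cells with LPS, against 18.9, 17.7 and 24.2 CPM in medium. It had 35.2, 42.9 and 39.4 CPM in WT cells with LPS, against 24.0, 23.9 and 24.8 CPM in medium. All LPS libraries were higher, by 1.19 ± 0.11 on the log2 scale in cKO cells and 0.69 ± 0.11 in WT cells (adjusted p = 1.1e-08 and 1.9e-05).

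Psme3 (PA28 gamma), a nuclear activator, fell with LPS in both genotypes. It had 11.9, 15.4 and 13.4 CPM in cKO cells with LPS, against 31.9, 27.5 and 47.9 CPM in cKO cells in medium, and 12, 15.8 and 9.38 CPM in WT cells with LPS, against 16.4, 19.8 and 25.2 CPM in WT cells in medium. The third cKO medium library stood above the rest. The log2 fold changes were -1.40 ± 0.25 (adjusted p = 7.3e-05) and -0.73 ± 0.25 (adjusted p = 0.017), and the WT call was lost without the third WT LPS library (-0.57, adjusted p = 0.085) or the third WT medium library (-0.55, adjusted p = 0.087).

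Under all 5 scalings tried (TMM, RLE, upper-quartile, DESeq2 and TPM), 7 members rose and 4 fell in cKO cells, and 7 rose and 3 fell in WT cells. Psma3, Psma5, Psmb6, Psmd8, Psmd11 and Psme4 are among those that rose in both, and Psmd6, Psmd7 and Psme3 among those that fell in both. Psma4 and Psma1 complete the cKO sets and Psmd10 the WT set.

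**Figure D3:**
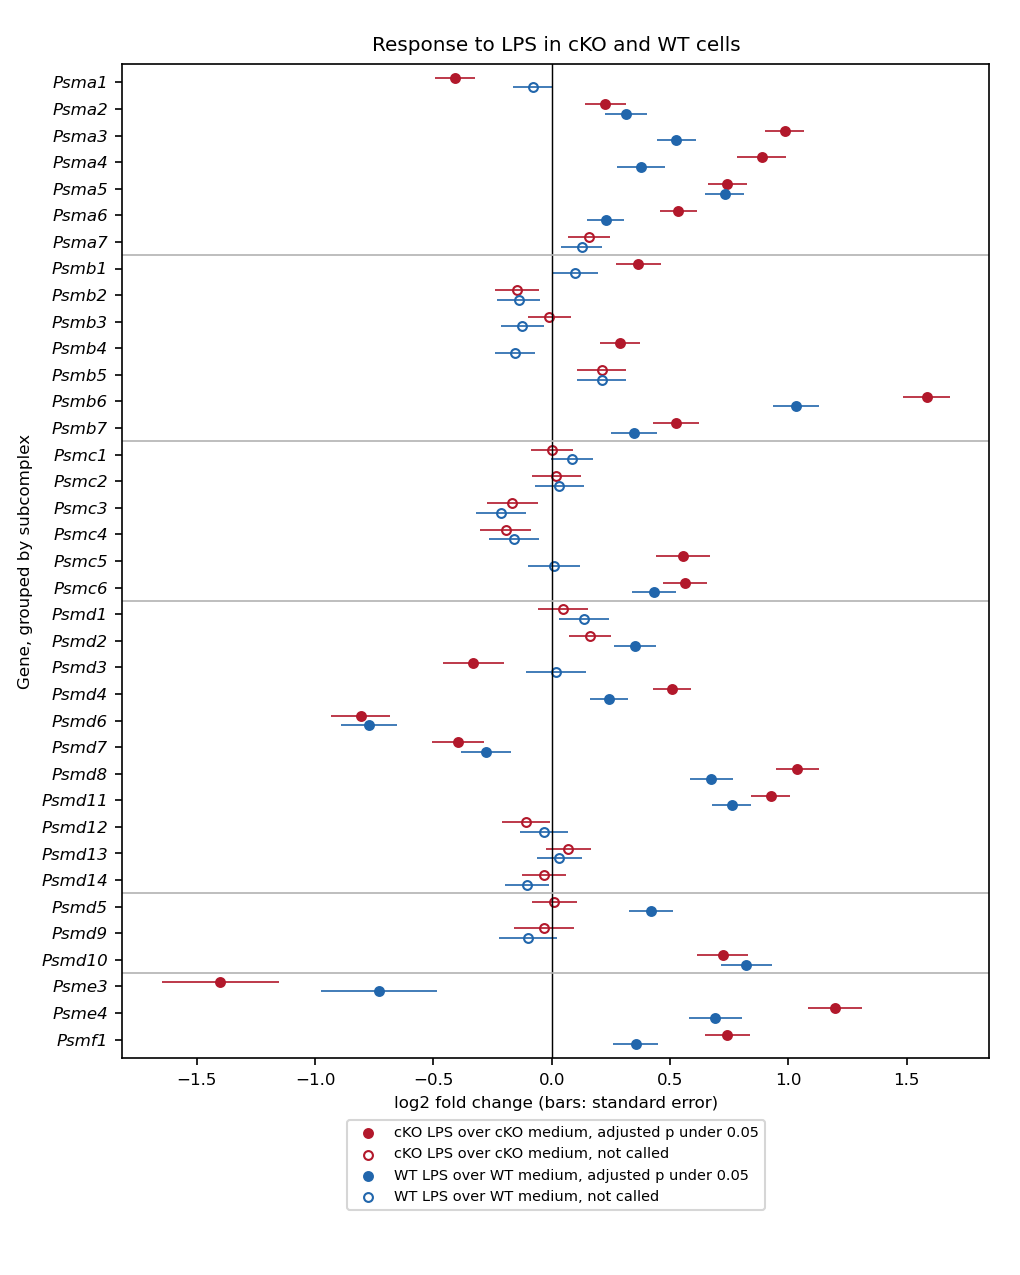
Log2 fold change with LPS (x axis, bars are standard errors) for each of the 37 genes, cKO cells above WT cells in each row, filled points at an adjusted p under 0.05. Of the 37, 17 rose and 5 fell in cKO cells, and 16 rose and 3 fell in WT cells. Psmb6 is farthest to the right in both genotypes, and Psme3 and Psmd6 are farthest to the left.

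Whether the LPS response differed between genotypes was tested as an interaction (cKO response minus WT response). It was larger in cKO cells for 6 of 37 members and smaller for 1, against 7.33% and 10.1% of all genes tested (17.4% in either direction). As shares of the members these are 16.2% and 2.70%, and the median was 0.04, against -0.08 for all genes. Psmb6 gave 0.55 ± 0.14 (adjusted p = 0.0091), Psmc5 0.55 ± 0.16 (adjusted p = 0.022) and Psma4 0.51 ± 0.15 (adjusted p = 0.020). Psmd5 gave -0.41 ± 0.13 (adjusted p = 0.038). The calls of Psmc5 and Psma4 were lost without any of 2 of the 12 libraries, and that of Psmd5 without any of 9. Of the granulocyte precursor markers, 3 of 10 were lower in this interaction. Of 8 macrophage markers, 2 were higher and 1 lower. The part of these markers was not tested. None of the 6 positive differences passed in TPM, where the median of all genes was -0.25 and Psmb6 was at 0.28 (adjusted p = 0.068), and no member had the same call under all 5 scalings. Psmb5 gave 0.00 ± 0.15 and Psmb7 0.18 ± 0.14, neither past the threshold.

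The direct comparison of genotypes under LPS called 11 members higher and 5 lower in cKO cells, against 16.0% and 19.3% of all genes tested (35.3% in either direction). By share, 29.7% of the members were higher and 13.5% lower, and the median was 0.01, against -0.05 for all genes. In TPM only 2 were higher and 22 lower (5.41% and 59.5%), against 6.10% and 45.7% of all genes. The median in TPM was -0.34 for the members and -0.31 for all genes. The members' direction thus turned with the scale, while all genes moved down as well.

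Psmb6 and Psmd8 were higher under every scaling. Psmb6 had 679, 706 and 705 CPM in cKO cells with LPS, against 385, 480 and 406 CPM in WT cells with LPS, a fold of 1.64 (log2 0.72 ± 0.10, adjusted p = 1.7e-05). Psmd8 had 721, 696 and 736 CPM, against 425, 520 and 492 CPM, a log2 fold change of 0.58 ± 0.09 (adjusted p = 6.8e-05). Neither gene's groups overlapped.

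The other 9 that were higher include Psmc6 (0.46 ± 0.09, adjusted p = 0.00064), the 1 positive value among 6 ATPases, and Psmd11 (0.26 ± 0.08) and Psmd4 (0.27 ± 0.08), a ubiquitin receptor. In TPM, 7 of the 11 turned negative, Psmd11 to -0.10 and Psmd4 to -0.09 among them. Of the cutting sites, Psmb7 had 91.6 ± 5.13 CPM in cKO cells and 90.8 ± 3.22 CPM in WT cells, and Psmb5 199.6 ± 5.92 CPM and 209 ± 26.7 CPM (SD, n = 3 each), and neither passed the test, although Psmb5 was lower in TPM (-0.42, adjusted p = 0.0009).

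Lower in cKO cells under LPS were Psmd7, Psmd6, Psmd3, Psmc1 and Psmc4. Psmd7 had 47.9, 45.8 and 49.5 CPM in cKO cells with LPS, against 81.8, 66.7 and 72.6 CPM in WT cells with LPS. The groups were apart, with a log2 fold change of -0.63 ± 0.11 (adjusted p = 0.00021). Psmd6, at -0.41 ± 0.12 (adjusted p = 0.014), lost its call without any 1 of the 3 cKO libraries or without the first WT LPS library (adjusted p up to 0.127). Psmd3 was at -0.41 ± 0.13 (adjusted p = 0.018), Psmc1 at -0.31 ± 0.09 and Psmc4 at -0.31 ± 0.11. Their calls were lost without any of 3 of the 6 libraries for Psmd3 (adjusted p up to 0.075), without the third cKO library for Psmc1 (adjusted p = 0.099) and without any of 4 for Psmc4 (adjusted p up to 0.138).

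In medium, cKO cells had 6 members higher and 3 lower than WT cells, against 15.8% and 14.4% of all genes tested (30.2% in either direction). The shares of 16.2% and 8.11% were at or below that background, and the median was -0.06, against 0.00 for all genes. In TPM the split was 3 higher and 12 lower (8.11% and 32.4%), against 12.1% and 18.6% of all genes. In the same comparison 8 of 10 granulocyte precursor markers were higher (973 to 2893 CPM summed in cKO cells, against 417 to 937 CPM in WT cells). So were 3 of 5 tested mast cell and basophil markers (10.6 to 20.1 CPM, against 2.19 to 10.1 CPM). Of 8 macrophage markers, 2 were higher and 3 lower. The part of these markers in the subunit values was not tested. The ATPase Psmc5 was the clearest single difference, with 45.5, 41.2 and 48.4 CPM in cKO cells, against 72.3, 63.1 and 91.0 CPM in WT cells. Every cKO library was below every WT library, with a log2 fold change of -0.74 ± 0.11 (adjusted p = 6.1e-05).

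Psmd7 was lower as well, at 70.9, 60.9 and 56.6 CPM in cKO cells, against 94.2, 76.9 and 96.7 CPM in WT cells (log2 -0.51 ± 0.11, adjusted p = 0.0013). Psmd6 was lower by 0.37 ± 0.12 on the log2 scale, a call lost without any of 3 of the 6 libraries (adjusted p up to 0.122). Psmc5 and Psmd7 were the 2 members called in this comparison under all 11 other settings and with any 1 of its 6 libraries left out. Psmd7 was thus lower in cKO cells both in medium and under LPS. These comparisons share no library, but they come from the same fit. Nothing says whether their libraries came from separate animals or cultures.

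Higher in cKO cells in medium were Psme3 (0.80 ± 0.23, adjusted p = 0.013), Psmd10 (0.37 ± 0.11), Psmc6 (0.33 ± 0.09), Psma7 (0.32 ± 0.09), Psmd5 (0.31 ± 0.09) and Psma2 (0.23 ± 0.09). The Psme3 call was lost without the third cKO library (0.53, adjusted p = 0.086) or the first WT library (0.66, adjusted p = 0.064). Without the first cKO library, which had the highest levels of Psma7, Psmd10, Psmc6, Psma2 and Psmd5 in its group, none of those 5 passed the test. The ribosomal precursor Rn45s took 1.28 to 4.01% of counts in cKO medium libraries, against 6.38 to 8.02% in WT medium libraries, and with it removed the call of Psma2 was lost while Psma3, Psmc1 and Psmc4 were called lower.

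IL10 with TGF-β alone, set against medium in WT cells, was followed by small changes: 11 members rose and 3 fell, against 18.3% and 16.9% of all genes tested (35.2% in either direction). The shares were 29.7% and 8.11%, and the median 0.14, against 0.00 for all genes. In TPM 1 rose and 4 fell (2.70% and 10.8%), against 12.8% and 24.8% of all genes. The largest rises were Psmd3 (0.44 ± 0.13), Psmd11 (0.42 ± 0.08) and Psmc4 (0.32 ± 0.11), of which only Psmd11 kept its call under every scaling; those of Psmd3 and Psmc4 were also lost without any of 2 of the 6 libraries each. Psmd11 had 116, 121 and 125 CPM with cytokines, against 92.8, 87.0 and 92.1 CPM in medium, with no overlap (adjusted p = 0.0004).

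Psma7 and Psmd8 fell with the cytokines under every scaling. Psma7 had 187, 187 and 184 CPM with cytokines, against 239, 238 and 232 CPM in medium (log2 -0.35 ± 0.09, adjusted p = 0.0039). Psmd8 had 247, 237 and 234 CPM, against 302, 320 and 278 CPM (log2 -0.33 ± 0.09, adjusted p = 0.0082). Psmd10 fell by 0.28 ± 0.11, a call lost without any 1 of the 6 libraries and with the replicate number as a block (-0.28, adjusted p = 0.056). The dendritic and granulocyte marker sums given above differ between these groups, with 8 of 9 tested dendritic markers lower and 10 of 10 granulocyte precursor markers higher with cytokines. Of 8 macrophage markers, 5 were higher and 2 lower with cytokines. The part of these markers in the subunit values was not tested.

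Adding the cytokines to LPS lowered 12 members and raised 1 relative to LPS alone in WT cells, against 21.1% and 19.1% of all genes tested (40.3% in either direction). By share, 32.4% of members fell and 2.70% rose, with a median of -0.12, against -0.01 for all genes. This direction held in TPM, where 14 fell (37.8%) and 0 rose, against 21.9% and 16.8% of all genes. The 12 span the particle: 4 alpha subunits, Psmb6, 2 ATPases, 3 other cap subunits, Psmd10 and Psme4.

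Psmb6 showed the largest fall. It had 241, 222 and 225 CPM with LPS and cytokines, against 385, 480 and 406 CPM with LPS alone, a fold of 0.541 (log2 -0.89 ± 0.10, adjusted p = 3.4e-07). Levels with LPS and cytokines were thus close to those of WT cells in medium (200, 203 and 219 CPM). Psmd10 had 60.8, 58.6 and 56.0 CPM, against 79.9, 106 and 84.7 CPM (log2 -0.62 ± 0.11), and Psmd8 had 329, 316 and 317 CPM, against 425, 520 and 492 CPM (log2 -0.58 ± 0.09).

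Among alpha subunits, Psma4 fell by 0.53 ± 0.10, Psma3 by 0.51 ± 0.08, Psma7 by 0.37 ± 0.09 and Psma5 by 0.30 ± 0.08 on the log2 scale. Psmc1, an ATPase that opens the core's gate, fell by 0.41 ± 0.09. Psmb7 and Psmb5 did not pass the test, at -0.23 ± 0.10 (adjusted p = 0.063) and -0.16 ± 0.10 (adjusted p = 0.24). Psmd4 was the 1 member that rose, by 0.21 ± 0.08 (adjusted p = 0.0495), and it did not pass in TPM (adjusted p = 0.063) or without any of 5 of the 6 libraries (adjusted p up to 0.184). Here too 8 of 9 tested dendritic markers were lower, and 7 of 10 granulocyte precursor markers higher, with cytokines. Of 8 macrophage markers, 4 were higher and 1 lower. The part of these markers was not tested.

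LPS given together with the cytokines, set against the cytokines alone, raised 6 members and lowered 12, against 23.9% and 23.1% of all genes tested (46.9% in either direction). The shares were 16.2% and 32.4%, and the median -0.12, against 0.00 for all genes. In TPM, 2 rose and 20 fell with all genes at -0.11. The falls were largest for Psme3 (-0.75 ± 0.24), Psmd6 (-0.66 ± 0.12) and the deubiquitinase Psmd14 (-0.58 ± 0.09). The Psme3 call was lost without the third library with cytokines alone (-0.57, adjusted p = 0.086) or the first with LPS and cytokines (-0.63, adjusted p = 0.070). Psmd14 had 101, 100 and 108 CPM, against 149, 146 and 168 CPM, with no overlap (adjusted p = 4e-05).

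Of 6 ATPases, 4 fell, by 0.23 to 0.54 on the log2 scale, and Psmc6 rose by 0.30 ± 0.09. The largest rises were Psmd10 (0.48 ± 0.11, adjusted p = 0.0011), Psmd8 (0.42 ± 0.09, adjusted p = 0.00077) and Psme4 (0.37 ± 0.11, adjusted p = 0.010), and the first pair were called under every scaling. Psmb6 was at 0.18 ± 0.10 (adjusted p = 0.13), with no overlap of the groups.

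The difference between the LPS responses with and without cytokines was tested directly. For 10 of 37 members (27.0%) the response was smaller with cytokines, against 12.1% of all genes tested, and for 0 it was larger in edgeR, against 8.88% (20.9% in either direction). At an unadjusted p under 0.05 in edgeR these counts were 16 and 0 of the 37, against 2126 and 1789 of the 11876 genes tested. DESeq2, at an adjusted p under 0.05, gave 11 and 0 of the 37. The median was -0.24, against 0.00 for all genes, and 34 of 37 values were negative. In TPM and under upper-quartile scaling 6 and 7 members were called, all smaller with cytokines, with all genes at 0.10 and 0.11.

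Psmb6 differed most, at -0.85 ± 0.14 (adjusted p = 0.00011), followed by Psma3 at -0.72 ± 0.12 (adjusted p = 0.00011), Psmd11 at -0.69 ± 0.12 (adjusted p = 0.00017), Psma5 at -0.59 ± 0.12 (adjusted p = 0.00082) and Psma4 at -0.57 ± 0.15 (adjusted p = 0.0075). These 5 were called under every setting and with any 1 library left out. Psma6 (-0.45 ± 0.11) joined them under every scaling. Psmd14, Psmb7, Psmd13 and Psma2, at -0.47 to -0.38, did not pass in TPM, and the last 3 also lost their calls with some single libraries left out. Psmb5 was at -0.33 ± 0.15 (adjusted p = 0.12). The WT LPS and WT medium libraries enter this difference and several of the comparisons above, so these results are not independent of each other.

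**Figure D4:**
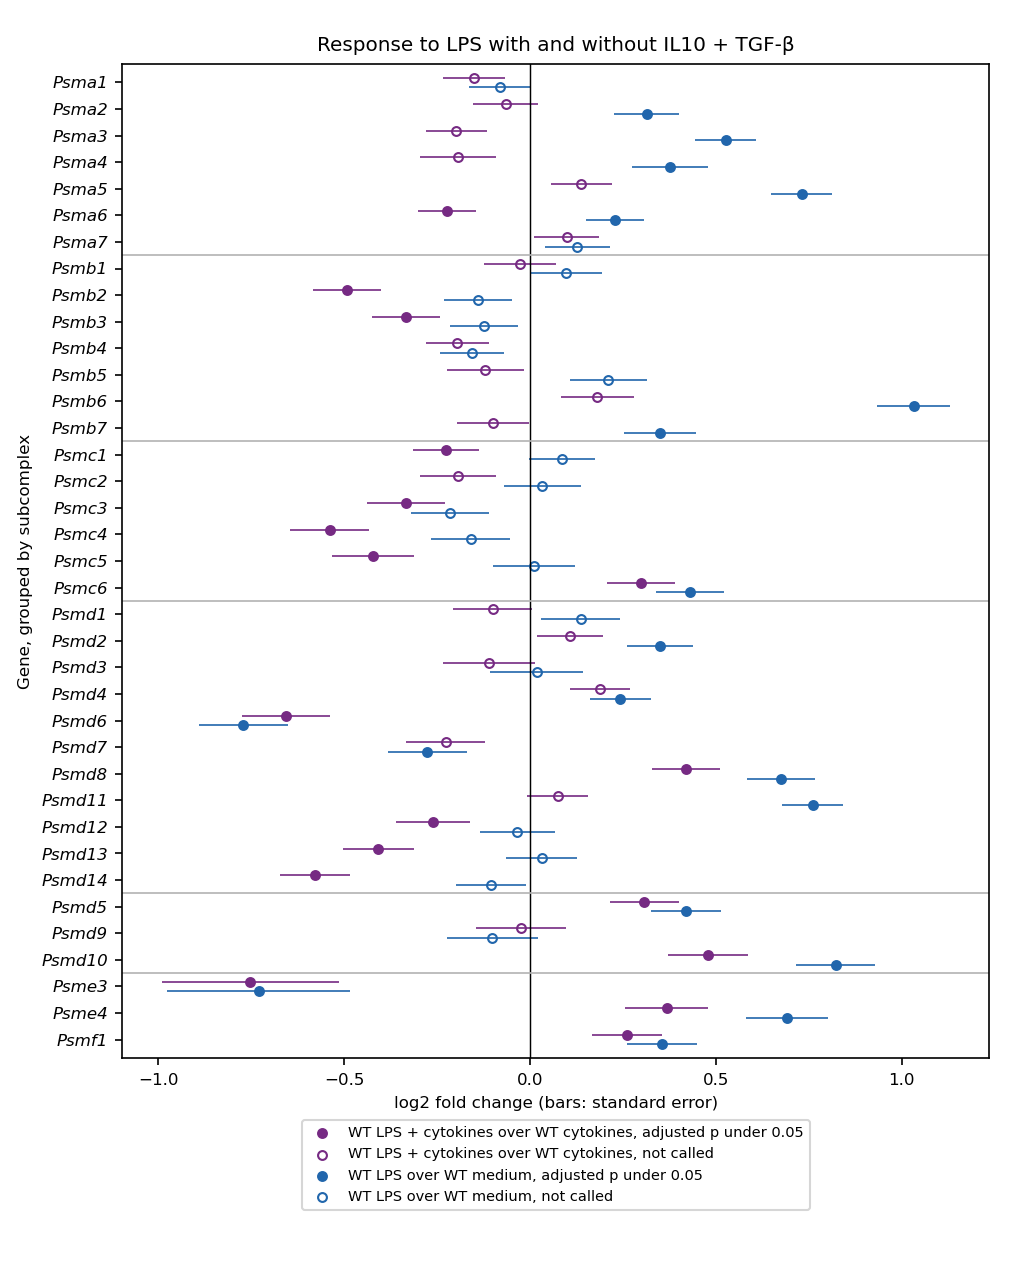
Log2 fold change with LPS (x axis, bars are standard errors) for each of the 37 genes in WT cells, with IL10 and TGF-β above and without them below in each row, filled points at an adjusted p under 0.05. The value with cytokines lies to the left of the value without them for 34 of the 37 genes, by most for Psmb6.

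The genes that work with the constitutive particle were taken from lists by role. Their fold changes and calls are given with TMM factors only. All 5 immunoproteasome and PA28 genes rose with LPS in cKO cells and in WT cells, where 29.3% and 29.8% of all genes rose, and all 5 fell when cytokines were added to LPS, against 21.1% of all genes. Psmb9, the inducible counterpart of Psmb6, averaged 176 ± 9.09 CPM in cKO cells with LPS, against 45.5 ± 3.52 CPM in cKO cells in medium. In WT cells it averaged 165 ± 13.6 CPM with LPS, against 54.1 ± 10.1 CPM in medium (SD, n = 3 each). The log2 fold changes were 1.95 ± 0.12 and 1.61 ± 0.12.

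Set side by side in TPM, the inducible subunits Psmb8, Psmb9 and Psmb10 together reached 1326 ± 32.6 TPM in cKO cells with LPS, 740 ± 80.8 TPM in cKO cells in medium, 926 ± 33.7 TPM in WT cells with LPS and cytokines, 1483 ± 51.2 TPM in WT cells with LPS, 776 ± 32.7 TPM in WT cells with cytokines and 761 ± 77.2 TPM in WT cells in medium (SD, n = 3 each). The constitutive Psmb5, Psmb6 and Psmb7 together reached 1304 ± 16.9 TPM in cKO cells with LPS, 926 ± 74.3 TPM in cKO cells in medium, 852 ± 14.7 TPM in WT cells with LPS and cytokines, 1247 ± 45.2 TPM in WT cells with LPS, 940 ± 29.9 TPM in WT cells with cytokines and 967 ± 97.5 TPM in WT cells in medium. The ratio of Psmb8 to Psmb5 was at least 2.82 in cKO cells with LPS, against at most 1.60 in cKO cells in medium, and at least 2.31 in WT cells with LPS, against at most 1.51 in WT cells in medium. Under LPS, the 3 pairs did not differ alike between genotypes. The ratio of Psmb8 to Psmb5 was higher in cKO cells, at 2.82 to 3.10, against 2.31 to 2.50 in WT cells, without overlap. The ratio of Psmb9 to Psmb6 was lower in cKO cells, at 0.324 to 0.342, against 0.495 to 0.555 in WT cells, without overlap. The ratio of Psmb10 to Psmb7 overlapped, at 0.948 to 1.24 in cKO cells and 0.747 to 1.25 in WT cells.

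Of the 5 genes listed for the core's assembly chaperones, 1 rose and 3 fell with LPS in cKO cells, where 29.3% of all genes rose and 34.8% fell. In WT cells 1 rose and 4 fell, against 29.8% and 28.9% of all genes. Psmg1, which pairs with Psmg2 to seed the alpha ring, averaged 7.84 ± 0.91 CPM in cKO cells with LPS, against 16.8 ± 1.57 CPM in medium, and 8.52 ± 1.48 CPM in WT cells with LPS, against 23.0 ± 0.896 CPM in medium. Pomp, which matures the beta ring, rose by 0.56 ± 0.10 in cKO cells. In WT cells it had 162, 164 and 157 CPM with LPS, against 121, 115 and 130 CPM in medium. None of the 5 genes was called in the genotype interaction.

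Of 7 genes for NRF1, NRF2 and their processing, 5 rose and 1 fell with LPS in each genotype, against 29.3% and 34.8% of all genes in cKO cells and 29.8% and 28.9% in WT cells. Nfe2l1, which encodes NRF1, rose by 0.84 ± 0.08 in WT cells, and Ngly1, the glycanase that activates NRF1, fell by 1.39 ± 0.10 in cKO cells and by 0.64 ± 0.09 in WT cells. Nfe2l2, which encodes NRF2, averaged 332 ± 25.5 CPM in cKO cells with LPS, against 224 ± 11.5 CPM in WT cells with LPS (log2 0.56 ± 0.09, adjusted p = 0.00013).

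Ubiquitin itself also differed by genotype. Of 6 ubiquitin and E1 genes, 4 were higher in cKO cells under LPS and 3 in medium, against 16.0% and 15.8% of all genes. Ubb averaged 4281 ± 173 CPM in cKO cells with LPS, against 2578 ± 254 CPM in WT cells with LPS, and 2482 ± 425 CPM in cKO cells in medium, against 1497 ± 54.3 CPM in WT cells in medium, a log2 fold change of 0.73 ± 0.11 in each. Of 10 proteasome-associated genes, 5 were higher and 1 lower in cKO cells under LPS, against 16.0% and 19.3% of all genes. In medium 2 were higher and 2 lower, against 15.8% and 14.4% of all genes. Among those that were higher, Akirin2, which imports proteasomes into the nucleus, averaged 16 ± 2.16 CPM in cKO cells with LPS, against 3.32 ± 0.815 CPM in WT cells with LPS (log2 2.27 ± 0.27). Zfand5, a proteasome-binding activator, averaged 113 ± 7.83 CPM in cKO cells in medium, against 30.8 ± 10.8 CPM in WT cells in medium (log2 1.88 ± 0.34). Zfand5 varied among WT groups too, with 71.8, 114 and 121 CPM in WT cells with LPS and cytokines. Faf1, a p97 adaptor among 11 shuttle factor genes, differed by 2.17 ± 0.26 in medium and 1.78 ± 0.28 under LPS, higher in cKO cells each time. Of those 11 genes, 3 were higher and 2 lower in cKO cells in medium, and 2 were higher and 1 lower under LPS.

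**Figure D5:**
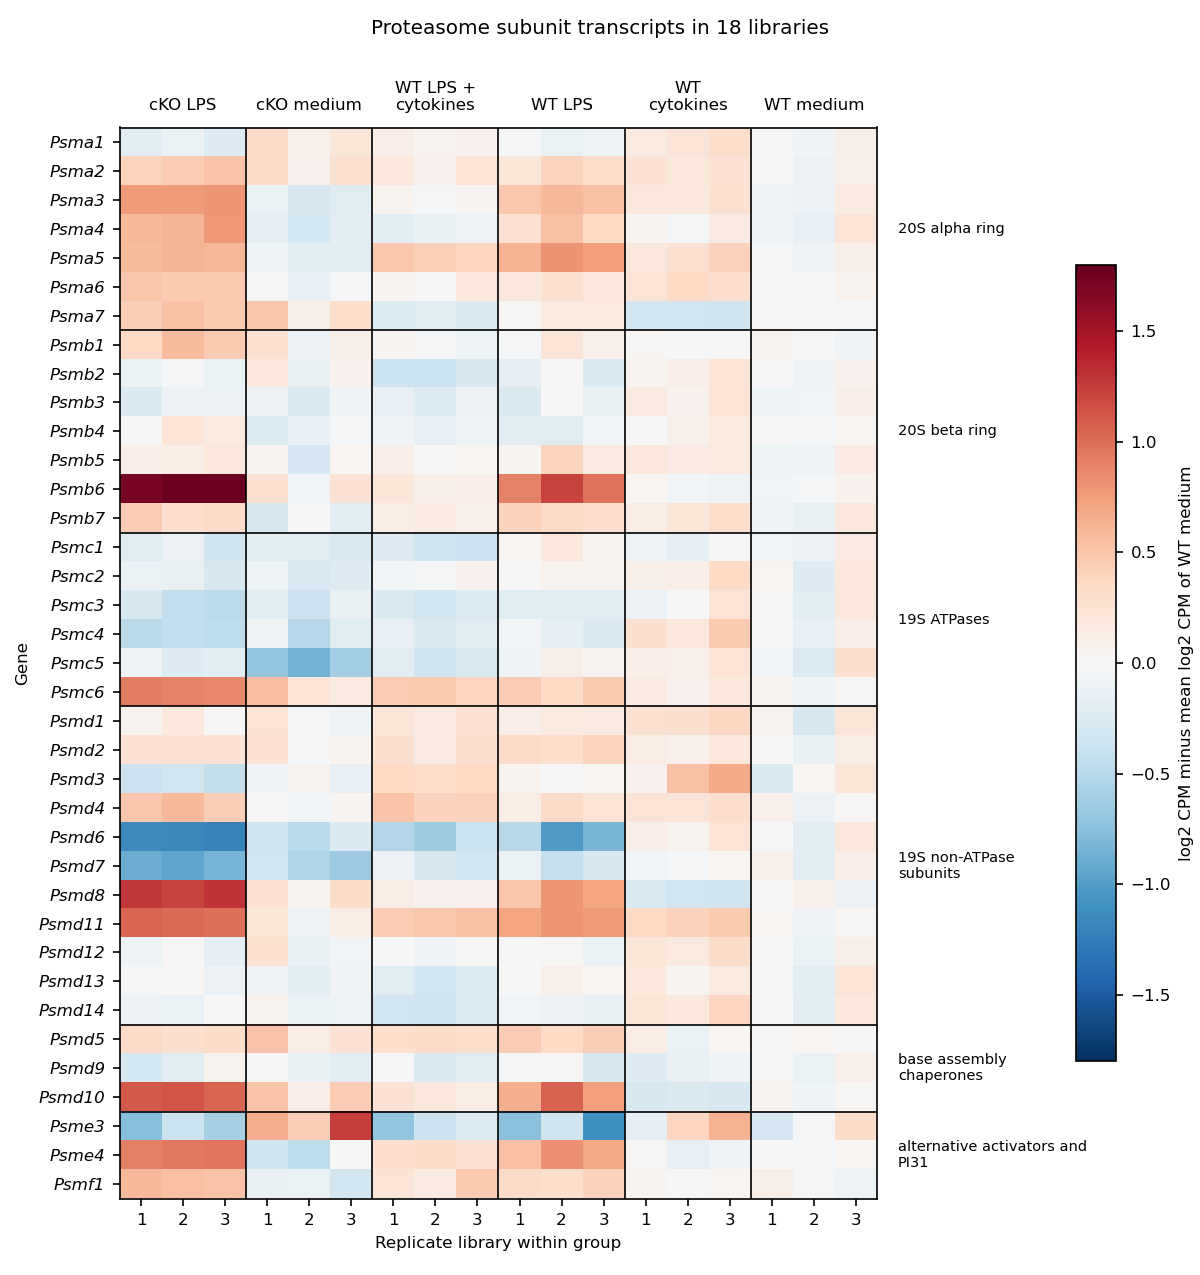
Log2 CPM of the 37 genes (rows, by subcomplex) in the 18 libraries (columns, by group), each minus the mean log2 CPM of the WT medium libraries. Psmb6, Psmd8 and Psmd10 are reddest in cKO cells with LPS, Psmd6 and Psmd7 bluest there, and the third cKO medium library has the highest Psme3 (47.9 CPM).

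Some values carry a limit from counting. Named RefSeq pseudogenes exist for Psma5, Psmb5, Psmb6 and Psmb7 and are not among the genes in the files, so reads from a near-identical copy could not be told apart. Psmb7, Psmd13 and Psmd9 share 11.8%, 10.1% and 25.5% of their exon bases with a gene on the other strand (GENCODE on GRCm38), and the sources do not say whether counting used strand. Psmb6 lies at chr11:70525367-70527858, Psmd8 at chr7:29174188-29180701, Psmd6 at chr14:14112174-14120984 and Psme3 at chr11:101316213-101323537 in that annotation.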

How the data were processed

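RNA was sequenced from 18 libraries in 6 groups of 3, grouped by their titles, which also number the replicates. The treatment protocol names 5 biological replicates, but nothing says whether a group's libraries came from separate animals or cultures, so p-values measure the spread among these samples. Per the file headers and the submitters' processing notes, the deposited values are gene-level expected counts and TPM from RSEM on the mm10 build, after bcl2fastq; versions and strandedness are not given in the sources used here. TPM were deposited by the authors scaled within each library over all genes, and served for levels between genes and as an alternative scale, log2(TPM + 1).

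Expected counts were rounded and filtered with filterByExpr, which kept 11876 of 23420 genes. All 18 libraries were fitted together in edgeR 4.0.16 (R 4.3.3, robust quasi-likelihood fit, TMM, no covariates). P-values were adjusted by Benjamini-Hochberg over all genes tested, and an adjusted p under 0.05 is a call. The 7 comparisons and 2 interactions were also run with RLE and upper-quartile factors, DESeq2 1.42.0, limma 3.58.1 on log2(TPM + 1) and log2(TPM + 0.1), without the filter, with at least 5 CPM in 3 libraries, with only the groups compared, with a replicate block, without Rn45s, with replicate 1 of each cKO group left out, and without each library in turn. The fit was tested on simulated data.

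Whether replicate numbers pair the libraries was checked over 8118 genes, by correlating deviations from the group means between libraries of the same number. Of 15 pairs of groups, 2 had all correlations over 0.1, of which 1 is compared directly: WT cytokines and WT medium (0.35, 0.21 and 0.44). The pairing there comes from the data. Same-group libraries differed by more than sampling noise (chi-square per degree of freedom 3.64 to 36.3).

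The members and the gene lists were chosen with earlier results of these data known. Named genes are the 3 catalytic subunits, the 3 largest called rises and falls per contrast, called members opposite to their subcomplex's median, each subcomplex's highest and lowest level, up to 3 called genes per pathway list, and Bag6; other members and genes named with values were chosen after their values were seen. Promoter sequences are from RefSeq (GRCm38.p6).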

Additional observations from a re-analysis of the deposited data

Results flagged for a closer look

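For 17 results, the test of a difference between 2 LPS responses passed at an adjusted p under 0.05. All values are differences of log2 fold changes from edgeR.

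The response in cKO cells minus that in WT cells was 0.46 for Psma3, 0.51 for Psma4, 0.44 for Psmb4, 0.55 for Psmb6, 0.55 for Psmc5 and 0.50 for Psme4, and it was -0.41 for Psmd5. On the log2(TPM + 1) scale, where all genes had a median of -0.25, the 6 positive values were 0.16 to 0.28 and none passed, while Psmd5 was at -0.66 and passed. The calls of Psmc5, Psme4, Psma4 and Psmd5 were also lost with single libraries left out.

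In WT cells, the response with IL10 and TGF-β minus that without them was -0.38 for Psma2, -0.72 for Psma3, -0.57 for Psma4, -0.59 for Psma5, -0.45 for Psma6, -0.85 for Psmb6, -0.45 for Psmb7, -0.69 for Psmd11, -0.44 for Psmd13 and -0.47 for Psmd14. Under TPM, Psma3, Psma4, Psma5, Psma6, Psmb6 and Psmd11 kept their calls. Dendritic cell marker sums were 1273 to 1701 CPM with LPS and cytokines, against 6952 to 7685 CPM with LPS alone. By the same test of a difference, 2 of 8 macrophage markers were higher and 4 lower. The part of these markers in these differences was not tested.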

How the results depend on the processing

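The number of members called, 9, 16, 19, 22, 14, 13 and 18 in the 7 comparisons and 7 and 10 in the genotype and cytokine interactions, moved by up to 1.5 times under the alternatives tried except as follows; the cause was not tested unless fewer libraries entered. For cKO over WT in medium (9 called) it was 5 without the count filter, 4 without replicate 1 of each cKO group, 3 with only the groups compared, and 15 in TPM with either pseudocount. For cKO over WT under LPS (16) it was 8 without the filter and 24 in TPM with either pseudocount. For WT cytokines over medium (14) it was 7 with upper-quartile factors, 5 without the filter and 5 in TPM with either pseudocount. For the genotype interaction (7) it was 4 without replicate 1 of each cKO group, and for the cytokine interaction (10) it was 5 without the filter and 6 in TPM with either pseudocount.

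Leaving out 1 library gave 5 (without cKO medium replicate 1) to 14 (without WT medium replicate 2) for cKO over WT in medium, 9 (without WT LPS replicate 1; 10 without cKO LPS replicate 3) to 17 for cKO over WT under LPS, 4 (without WT cytokines replicate 3) to 18 for WT cytokines over medium (at most 9 without any of the libraries but WT medium replicate 3), 12 (without WT cytokines replicate 3) to 15 for WT LPS and cytokines over cytokines (18) and 3 (without WT LPS replicate 1) to 9 for the genotype interaction. With a replicate block, 11 members rose and 2 fell in WT cells with cytokines over medium, 10 were called for cKO over WT in medium and 12 for the cytokine interaction, all within 1.5 times; the other 6 counts were within 1.5 times too. Of the members' calls, the block ended that of Psmd10 with cytokines over medium (-0.28) and of Psmd4 with LPS and cytokines over LPS (0.20).

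Called members turned sign in TPM only: 7 of 16 for cKO over WT under LPS (Psma3, Psma4, Psma6, Psma7, Psmb4, Psmd4 and Psmd11, at -0.11 to -0.0082), 5 of 22 with LPS in cKO cells (Psma2 at -0.30, Psmb4 at -0.24, Psmb1 at -0.16, Psmd4 at -0.023 and Psmb7) and 2 of 19 with LPS in WT cells (Psma6 at -0.023 and Psmd4 at -0.010). For cKO over WT under LPS, Psmb7 was -0.041 with upper-quartile factors, -0.032 without replicate 1 of each cKO group, -0.34 and -0.35 in TPM (pseudocounts 1 and 0.1) and -0.00967 to 0.063 with 1 library left out; Psmd4 was -0.091 and Psmd11 -0.10 in TPM with either pseudocount, and Psmb5 was -0.14 to 0.040 with 1 library left out. In medium, Psmb5 was -0.13 to 0.038 with 1 library left out, and Psmb6 for WT cytokines over medium was -0.075 to 0.0061. With LPS in TPM, Psmb5 was -0.042 and -0.043 in WT cells and -0.31 in cKO cells, where Psmb7 was -0.0027 and the p97 cofactor gene Nploc4 -0.13 and -0.15. In the genotype interaction, Psmb5 was -0.034 with upper-quartile factors, -0.0039 with at least 5 CPM in 3 libraries, -0.0012 with the replicate block, -0.27 in TPM with either pseudocount and -0.10 to 0.11 with 1 library left out; Psmb7 was -0.11 in TPM with either pseudocount.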
